A study of Mus musculus with 2116 samples.

Results

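The interferon regulatory factors (IRFs) are transcription factors that share a DNA-binding domain and bind GAAA-containing elements in the promoters of interferon and interferon-stimulated genes. The genes described here were taken by symbol: Irf1, Irf2, Irf3, Irf4, Irf5, Irf7, Irf8 and Irf9 are 8 of the 23725 genes in the count table, and all 8 had UMIs in both libraries. Spleen regulatory T cells (Treg, FoxP3+) were set against conventional CD4+ T cells (Tconv, FoxP3-), both from male mice of strain B6 Foxp3-Ires-Gfp aged 8 months, with no treatment named. In this strain GFP reports Foxp3 expression. Each group was 1 inDrops library, in which single cells are encapsulated in droplets and their mRNA is counted by unique molecular identifiers (UMIs). The labels name no animals, so each group is 1 sample and no test between groups was made.

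IRF1, IRF2 and IRF9 act downstream of interferon receptors: IRF1 is induced by interferons, IRF2 competes with it for the same elements, and IRF9 is the DNA-binding subunit of the ISGF3 complex. IRF3, IRF5 and IRF7 are held in the cytoplasm until sensors of nucleic acids activate them. IRF4 and IRF8 are expressed mainly in blood cells; IRF4 is induced by antigen receptor signals and is required in mice for effector Treg cells, while IRF8 is a defining factor of plasmacytoid dendritic cells, of a subset of conventional dendritic cells, and is expressed in B cells.

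The Treg library held 816 cells and 1468203 UMIs, with a median of 1689 UMIs per cell, and the Tconv library held 1300 cells and 2002752 UMIs, with a median of 1511. The libraries shared 12 cell barcodes. The protocol names GFP+ sorting for both populations, so the labels were checked by Foxp3, which had 558 UMIs in 297 Treg cells against 6 UMIs in 6 Tconv cells. T cell receptor complex genes were present in both libraries, with 344 Cd3e UMIs in the Treg library and 511 in the Tconv library. Of the genes with at least 20 UMIs over both libraries, 8.61% were at least 2-fold higher and 3.6% at least 2-fold lower in Treg, and the median log2 ratio was 0.14. That median was 0.01 when ribosomal protein genes were left out of the totals, since those genes made up 25.6% of the Treg and 32.0% of the Tconv total. A positive cell held more UMIs of the same gene in Treg: over 5383 genes the median was 1.52 UMIs per positive cell in Treg and 1.25 in Tconv, with 31.3 and 18.7 mapped reads per UMI. All intervals below are 95% intervals that treat UMIs as independent and cover counting error only.

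Of the 8 IRF genes, Irf4, Irf5 and Irf8 were at least 2-fold higher in Treg and none was at least 2-fold lower, beside 8.61% of all genes in the upward and 3.6% in the downward direction. The other 5 genes had log2 ratios between 0.19 and 0.55, and the median of the 8 was 0.51, against 0.14 for all genes. All 8 ratios were above 0 with the totals as deposited, without ribosomal protein genes and with TMM factors. Counted as cells with a UMI at equal depth, Irf2 lay at -0.02 (-0.46 to 0.41).

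**Figure D1:**
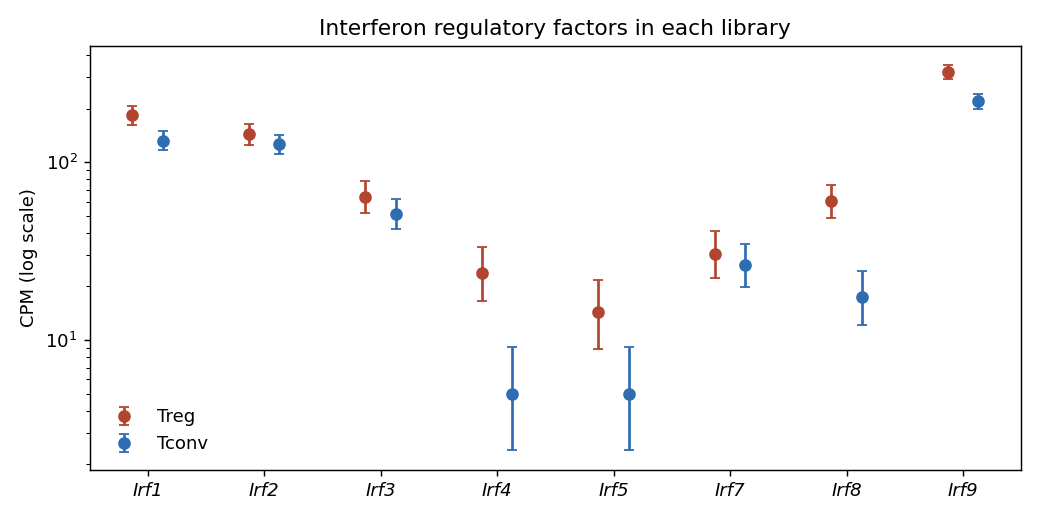
Counts per 1000000 UMIs (CPM, log axis) of the 8 IRF genes in the Treg library (left point of each pair) and the Tconv library (right point). Bars are exact Poisson 95% intervals. The intervals of Irf1, Irf4, Irf8 and Irf9 do not overlap between the libraries, those of Irf5 overlap slightly and those of Irf2, Irf3 and Irf7 overlap broadly. The share of all genes with intervals apart was not computed.

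Irf1, the factor that acts on MHC class I and guanylate-binding protein genes, had 269 Treg UMIs and 265 Tconv UMIs, which gave 183 CPM (162 to 206) and 132 CPM (117 to 149). The log2 ratio was 0.47 (0.22 to 0.72). Those UMIs lay in 152 of 816 Treg cells and 203 of 1300 Tconv cells, with 1.77 and 1.31 UMIs per positive cell. The excess in Treg thus went together with more UMIs per positive cell, as it did across the table. After every cell was thinned to 1000 UMIs, which left 738 Treg and 1108 Tconv cells, Irf1 was seen in 13.3% (10.9 to 15.9) of Treg cells and 10.9% (9.14 to 12.9) of Tconv cells, and the intervals overlapped.

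Irf9, the ISGF3 subunit, gave the same kind of result. It had 471 Treg UMIs and 440 Tconv UMIs, which gave 321 CPM (292 to 351) and 220 CPM (200 to 241), for a log2 ratio of 0.55 (0.36 to 0.74). Thinned cells held it in 21.1% (18.2 to 24.3) of Treg and 18.2% (16 to 20.6) of Tconv, for a log2 ratio of 0.21 (-0.10 to 0.52), which is below the interval of the UMI ratio.

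Irf2, the competitor of IRF1, had 211 Treg UMIs and 252 Tconv UMIs, for a log2 ratio of 0.19 (-0.08 to 0.46), and was seen in 10.3% and 10.5% of thinned cells. Irf3, which is activated by TBK1 downstream of STING and MAVS, had 94 Treg UMIs and 103 Tconv UMIs, for a log2 ratio of 0.32 (-0.10 to 0.73). Irf7, the amplifier of type I interferon production, had 45 Treg UMIs and 53 Tconv UMIs, for a log2 ratio of 0.21 (-0.39 to 0.81). For these 3 genes the intervals span no difference, and differences up to 1.38-fold for Irf2, 1.66-fold for Irf3 and 1.76-fold for Irf7 in favour of Treg lie within them. Without the cells holding at least 3 UMIs of any other cell type's list, the Irf7 log2 ratio was -0.19 (-0.93 to 0.52).

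Irf4 (chr13:30749226-30766976, plus strand, GRCm38, GENCODE M21) had 23.8 CPM (16.6 to 33.2) in Treg and 4.99 CPM (2.39 to 9.18) in Tconv, for a log2 ratio of 2.26 (1.21 to 3.43), the highest of the 8 genes with the totals as deposited. In cells thinned to 1000 UMIs Irf4 was at 2.25 and Irf5 at 2.46, with intervals that overlap. Its UMIs were concentrated in few cells. In Treg 14 cells were positive: 3 of them held 10, 8 and 6 UMIs and the other 11 held 1 each. In Tconv 6 cells were positive and the highest held 4 of the 10 UMIs. The Fano factor, the variance over the mean of UMIs per cell, was 5.99 in Treg and 2.39 in Tconv. Without the 3 highest cells of each library the log2 ratio was 2.33 (0.41 to 4.81). As cells with a UMI among thinned cells, Irf4 was seen in 1.08% (0.469 to 2.12) of Treg and 0.361% (0.0984 to 0.922) of Tconv cells, 8 and 4 cells, so the intervals of that share overlapped.

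Irf8 (chr8:120736358-120756694, plus strand) had 60.6 CPM (48.7 to 74.6) in Treg and 17.5 CPM (12.2 to 24.3) in Tconv, from 89 and 35 UMIs, for a log2 ratio of 1.79 (1.22 to 2.40). With cells at their own depth, its Fano factors, 7.15 (Treg) and 2.80 (Tconv), were the highest of the 8 genes in both libraries. The Treg value was 4.86 without the top cell, beside 4.41 for Irf4 without its own. In cells thinned to 1000 UMIs the Treg factor was 2.25 for Irf8 and 4.35 for Irf4. The Tconv factor at 1000 UMIs was 2.21 for Irf8, still the highest, and 1.66 for Irf4. At 500 UMIs it was 1.57 for Irf8 and 1.80 for Irf4, so the ranking depended on depth. Of the 35 Irf8-positive Treg cells, 18 held 1 UMI, 9 held 2 and 8 held 3 or more, up to 17. Of the 18 Irf8-positive Tconv cells, 10 held 1 UMI and 5 held 3 or more, up to 5.

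Markers of antigen-presenting cells were also higher in Treg. Among list members with at least 20 UMIs, 5 of 5 class II presentation genes, 5 of 9 B cell genes, 3 of 8 plasmacytoid dendritic genes, 2 of 7 conventional dendritic genes and 9 of 12 myeloid genes were at least 2-fold higher in Treg, and none was 2-fold lower. Over all genes, 8.61% were at least 2-fold higher and 3.6% lower. The summed class II list was at 571 CPM in Treg and 151 CPM in Tconv, and the plasmacytoid dendritic list at 287 and 156 CPM. The most abundant gene of the plasmacytoid dendritic list, Pacsin1, had 128 Treg UMIs and 134 Tconv UMIs, a log2 ratio of 0.38 (0.02 to 0.74). Of the defining markers, Siglech of plasmacytoid dendritic cells had 27 Treg UMIs and 5 Tconv UMIs, Cd79a of B cells 149 and 49, and the macrophage genes C1qa and C1qb 48 and 28 in Treg, with 0 in Tconv. For the red cell gene Hba-a2, 133 UMIs were counted in the Treg library and 0 in the Tconv library. Of the 3 measured plasma cell genes, Jchain had 0 UMIs in Treg and 372 in Tconv, while Xbp1, with 111 and 69, and Mzb1, with 24 and 16, were at least 2-fold higher in Treg per total UMIs.

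Cells were therefore divided by lists that do not hold Irf8. By the division of at least 3 UMIs of the dendritic, B and class II lists, 78 Treg cells held 52 of 89 Irf8 UMIs, a share of 58.4% (47.5 to 68.8). The same division put 17 of 35 UMIs, 48.6% (31.4 to 66.0), in 39 Tconv cells. Many of these cells also had T genes: 42 of the 52 Treg UMIs and 14 of the 17 Tconv UMIs were in cells with at least 1, and the cells with 17 and 15 Irf8 UMIs had 2 and 1 T list UMIs. The Treg share moved with depth and threshold, to 32.3% in thinned cells and to 80.9% with a threshold of 1 UMI.

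A sharper division, chosen after the data were seen, compared the summed dendritic, B, class II and myeloid UMIs of each cell with its T list UMIs. By it 26 Treg cells and 16 Tconv cells had more UMIs of the other lists and are called non-T cells here, and 790 and 1284 cells are called T-gene cells. Equal sums count as T-gene cells, so 3 Treg cells with no UMI of any of these lists are among them. Non-T cells had a median of 1507 Treg UMIs and 1567 Tconv UMIs, near the medians of T-gene cells, 1696 and 1510. They held 57 and 26 T list UMIs in all, against 11178 and 16157 in T-gene cells. Of the plasmacytoid dendritic list, non-T cells held 163 Treg UMIs and 35 Tconv UMIs. T-gene cells held more of that list, 259 and 277, so its UMIs are not confined to non-T cells.

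**Figure D2:**
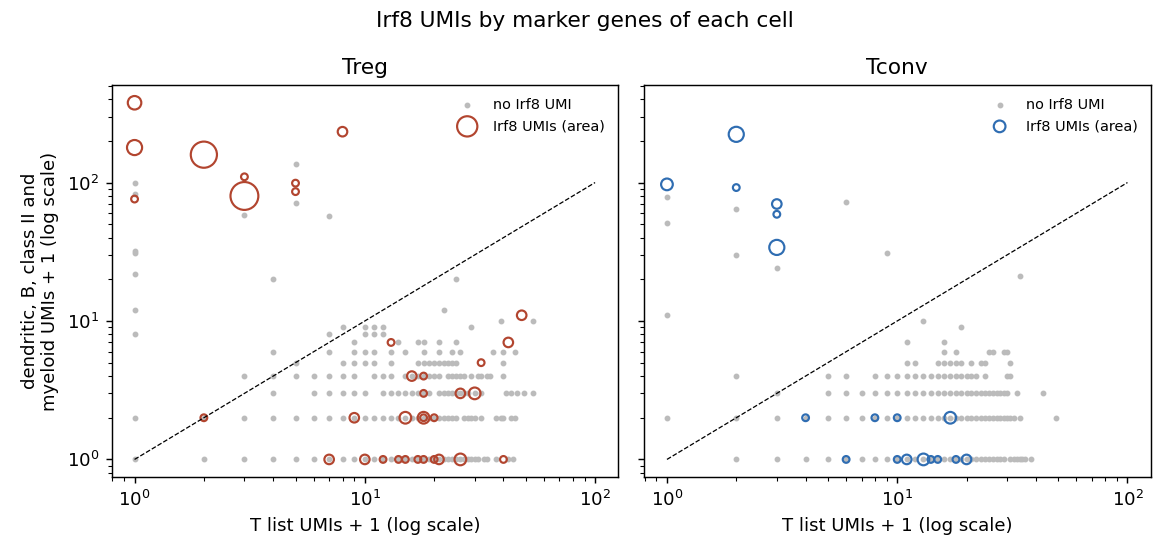
Each point is 1 or more cells, placed by its UMIs of the T list (horizontal, plus 1, log axis) and of the dendritic, B, class II and myeloid lists (vertical, plus 1, log axis), in Treg (left) and Tconv (right). Open circles have Irf8 UMIs, with area in proportion to the count, and the dashed line marks equal sums. The largest circles, of 17 and 15 UMIs, are 2 Treg cells far above the line, while circles below it hold 1 to 3 UMIs.

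In Treg, 47 of 89 Irf8 UMIs (52.8%, 41.9 to 63.5) were in 9 of the 26 non-T cells, and 42 were in 26 of the 790 T-gene cells. The levels were 992 CPM in non-T cells and 29.6 CPM in T-gene cells, 33.5-fold apart (21.7 to 52.1). Of the 47 UMIs, 32 lay in 2 cells, which that interval does not take into account. The ratio without those 2 cells was not computed. In Tconv, 17 of 35 UMIs (48.6%) were in 6 of the 16 non-T cells and 18 in 12 of the 1284 T-gene cells, 566 and 9.12 CPM, 62.0-fold apart (30.0 to 128).

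The non-T cells with Irf8 were of several kinds. In Treg, 7 cells in which the dendritic lists led held 32 of the 47 UMIs, all in 2 cells. The cell with 17 had 33 plasmacytoid and 27 class II UMIs, and the cell with 15 had 65 plasmacytoid and 52 myeloid UMIs. Another 6 cells led by the myeloid list held 11 Irf8 UMIs, and 12 cells led by the B list held 4. In Tconv, 8 cells led by the B list held 9 Irf8 UMIs and 7 led by the myeloid list held 8. The single Tconv cell led by the dendritic lists held 0. The highest Irf8 count in a Tconv cell was 5.

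Within T-gene cells Irf8 remained higher in Treg, 29.6 against 9.12 CPM, for a log2 ratio of 1.70 (0.87 to 2.58) or 3.24-fold (1.82 to 5.98). No T-gene cell held more than 3 Irf8 UMIs in either library. Of the 26 positive Treg cells, 12 had no UMI of the dendritic, B or class II lists, as did 9 of the 12 positive Tconv cells. Cd74, the class II invariant chain, also differed among T-gene cells, with 48 UMIs (33.8 CPM) in Treg and 6 (3.04 CPM) in Tconv, and its part in the Irf8 difference was not tested.

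T-gene cells with Irf8 in the Treg library often had Foxp3. After thinning, 9 of 17 such cells (52.9%, 27.8 to 77.0) had a Foxp3 UMI, against 182 of 703 (25.9%, 22.7 to 29.3) T-gene cells without Irf8. The intervals overlap slightly. Irf4 gave 4 of 8 (50%, 15.7 to 84.3) against 187 of 712 (26.3%). Irf1, by comparison, gave 27 of 97 (27.8%) against 164 of 623 (26.3%), and Irf7 gave 3 of 19 (15.8%) against 188 of 701 (26.8%). In Tconv none of the 8 thinned T-gene cells with Irf8 had Foxp3, with an exact interval up to 36.9%.

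Irf5, which acts downstream of Toll-like receptors and is best known from myeloid and B cells, was also concentrated in non-T cells. At chr6:29526625-29541871 on the plus strand, it had 21 Treg UMIs and 10 Tconv UMIs, 14.3 CPM (8.85 to 21.9) and 4.99 CPM (2.39 to 9.18), for a log2 ratio of 1.52 (0.37 to 2.77). Non-T cells held 10 of the 21 Treg UMIs and 7 of the 10 Tconv UMIs, and within them the level was 211 CPM in Treg and 233 CPM in Tconv. Cells led by the myeloid list held 6 of the 10 and all 7 of these UMIs. T-gene cells held 11 UMIs in Treg, from 10 cells, and 3 in Tconv, for a log2 ratio of 2.35 (0.43 to 4.83) that rests on those few counts.

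For the remaining members the interval of non-T over T-gene cells included 1, or had only an upper bound. Irf4 had 0 UMIs in the non-T cells of both libraries, with 35 and 10 in T-gene cells, and the upper bound for non-T over T-gene cells was 3.33-fold in Treg and 29.3-fold in Tconv. In Treg, the ratio of non-T over T-gene cells was 1.65 (0.81 to 3.01) for Irf2 and 2.04 (0.73 to 4.63) for Irf3, and each had 1 UMI in Tconv non-T cells. Irf1 was at 105 CPM in non-T and 186 CPM in T-gene cells of Treg, a log2 difference of -0.82 (-2.45 to 0.42). Irf9 was at 232 and 324 CPM there, at -0.48 (-1.49 to 0.37), and Irf7 at 63.3 and 29.6 CPM from 3 and 42 UMIs, 2.14-fold (0.42 to 6.70). Among T-gene cells alone, Irf1 was at 0.48 (0.23 to 0.74), Irf9 at 0.56 (0.37 to 0.75) and Irf4 at 2.28 (1.24 to 3.46) in Treg over Tconv, all close to their values over all cells.

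**Figure D3:**
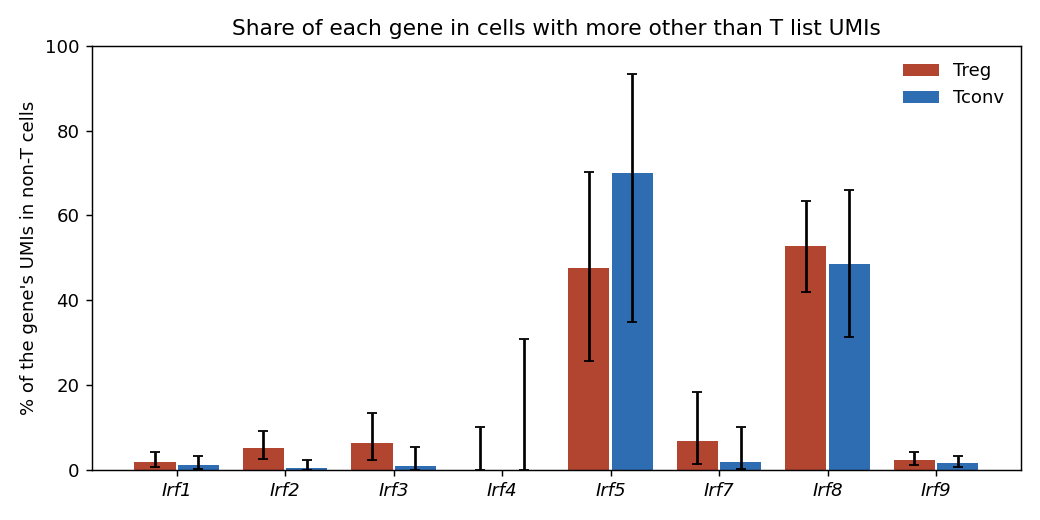
Percentage of each gene's UMIs that lay in non-T cells, with exact Clopper-Pearson 95% intervals, in Treg (left bar) and Tconv (right bar). Irf5 and Irf8 are the members with large shares, and Irf4 had none in either library.

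Levels were next compared across T cell states within each library. Cells without a dendritic, B or myeloid call were thinned to 1000 UMIs and divided by whether they had at least 2 UMIs of a gene list or fewer, and no list holds an IRF gene. Irf4 followed T cell receptor (TCR) response genes such as Nr4a1, Cd69 and Tnfrsf9. In Treg it had 18 UMIs in the 256 cells with these genes and 1 UMI in the 378 cells without, 70.3 CPM (41.7 to 111) and 2.65 CPM (0.0670 to 14.7). The log2 ratio was 4.73 (2.07 to 10.1). In Tconv it had 5 UMIs in 262 cells with and 1 in 788 cells without, for a log2 ratio of 3.91 (0.75 to 9.47). The Treg value rests in part on the 3 highest cells, and without them it was 2.58 (-0.76 to 8.20). Seen the other way, the 8 Irf4-positive Treg cells had 12.5 TCR response UMIs per 1000, against 2.05 in the 626 cells without Irf4, and 7 of the 8 were among the cells with at least 2. By effector Treg genes such as Icos, Maf and Batf, Irf4 was at 35.1 CPM in the 57 Treg cells with and 29.5 CPM in the 577 without, for a log2 ratio of 0.25 (-2.91 to 2.33). In Tconv, 5 of the 6 thinned Irf4 UMIs were in 3 of the 21 cells with these genes.

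Irf1 also differed with T cell state, in Treg. It was at 262 CPM (203 to 332) in Treg cells with TCR response genes and 148 CPM (112 to 192) in those without, for a log2 ratio of 0.82 (0.29 to 1.36). With cells left at their own depth and divided at 2 UMIs per 1000, that ratio was 0.22 (-0.17 to 0.61). By effector or memory genes Irf1 was at 249 CPM in Treg cells with and 125 CPM in those without, 0.99 (0.41 to 1.60), which was 0.37 (-0.32 to 1.12) with a threshold of 1 UMI. By resting T genes it was at 162 CPM in cells with and 250 CPM in cells without, -0.63 (-1.16 to -0.09). In Tconv the same divisions gave 0.18 (-0.40 to 0.73), 0.14 (-0.36 to 0.65) and -0.22 (-0.94 to 0.58), and the difference between the libraries was not tested. Irf2, which binds the same elements, had the opposite sign in Treg, -0.48 (-1.15 to 0.16) by TCR response and -0.43 (-1.04 to 0.18) by effector or memory genes, with intervals that include 0.

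By interferon-stimulated genes, the interval of the log2 ratio lay above 0 for Irf9 in Treg and for Irf1 and Irf7 in Tconv. Each was in 1 library, and the difference between the libraries was not tested. The share of all genes with such an interval was not computed. In Treg, Irf9 was at 371 CPM (322 to 425) in the 561 cells with at least 2 UMIs of the list and 123 CPM (56.4 to 234) in the 73 cells without, for a log2 ratio of 1.59 (0.64 to 2.74). With a threshold of 3 UMIs it was 0.87 (0.32 to 1.47), and with 1 UMI 3.32 (0.83 to 8.63). In Tconv, Irf9 was at 256 CPM in 755 cells with and 227 CPM in 295 cells without, 0.17 (-0.24 to 0.59). Irf7 had 15 UMIs in Treg cells with and 0 in those without. The exact interval for 0 UMIs in those 73 cells reaches 50.5 CPM, so no difference was detectable there. In Tconv it had 23 and 2 UMIs, 30.5 and 6.78 CPM, for a log2 ratio of 2.17 (0.15 to 5.30). Under all 5 alternatives to that division the Irf7 interval included 0, with ratios between 0.62 and 1.82. Irf1 was at 150 CPM in Tconv cells with and 88.1 CPM in those without, 0.76 (0.14 to 1.44), or 0.63 (-0.26 to 1.66) with a threshold of 1 UMI, and in Treg the ratio was 0.41 (-0.49 to 1.45). Irf3, whose protein is present before any stimulus, was at -0.71 (-1.91 to 0.72) in Treg and -0.12 (-1.06 to 0.90) in Tconv.

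**Figure D4:**
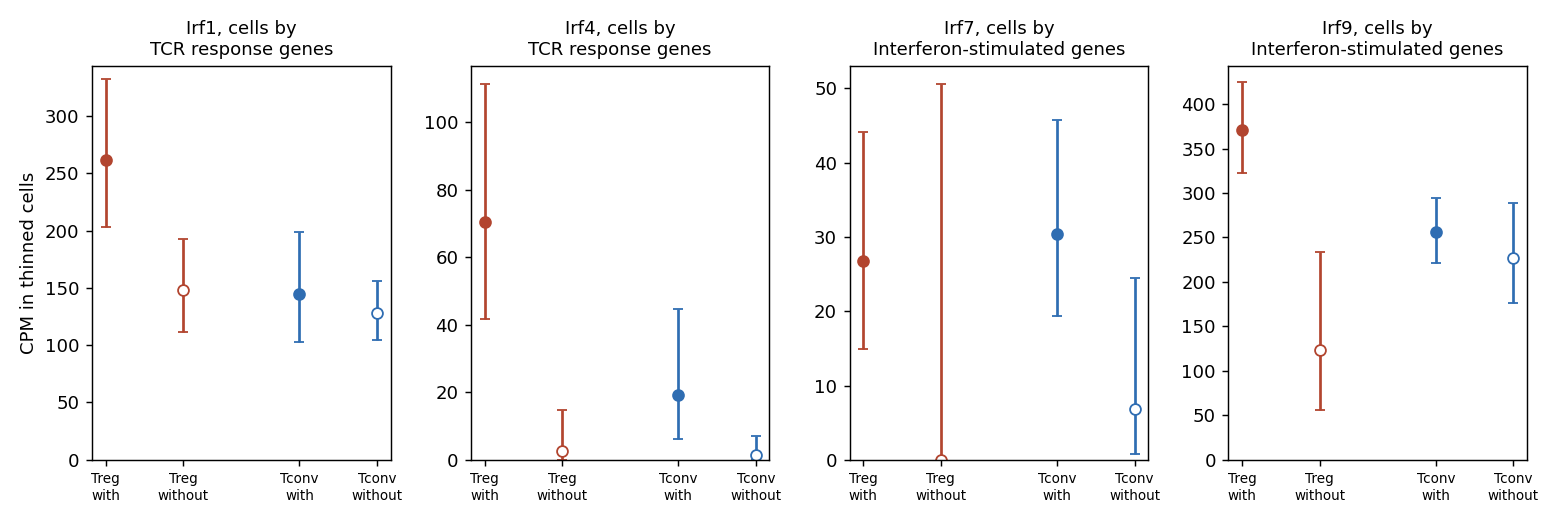
CPM of Irf1 and Irf4 in thinned cells with at least 2 UMIs of TCR response genes (filled, "with") and with fewer (open, "without"), and of Irf7 and Irf9 by interferon-stimulated genes, in Treg and Tconv. Bars are exact Poisson 95% intervals. The intervals of Irf1 and Irf4 by TCR response and of Irf9 by interferon-stimulated genes are apart in Treg. For these divisions the share of all genes with intervals apart was not computed.

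Promoter sequences were searched for the gamma-activated sequence (GAS, TTCNNNGAA, the same on both strands) in the 250 bases upstream of each RefSeq start on GRCm38.p6. All 8 genes matched, with 11 entries. GAS was found for 3 of the 8 genes (Irf1, Irf2 and Irf8), counting a match in any window of a gene. It was in 7.02% of all 32851 windows of that length, a share per window and not per gene. The other windows of Irf1 (chr11:53770223-53770472) and Irf8 (chr8:120738389-120738638) held none. The windows of Irf1 (chr11:53769764-53770013, plus strand) and Irf8 (chr8:120736108-120736357, plus strand) are shown because interferon-gamma induces both genes, with GAS matches in capitals, 90 bases before the start of Irf1 and 171 and 153 bases before that of Irf8. These matches are descriptions of sequence only.
Irf1: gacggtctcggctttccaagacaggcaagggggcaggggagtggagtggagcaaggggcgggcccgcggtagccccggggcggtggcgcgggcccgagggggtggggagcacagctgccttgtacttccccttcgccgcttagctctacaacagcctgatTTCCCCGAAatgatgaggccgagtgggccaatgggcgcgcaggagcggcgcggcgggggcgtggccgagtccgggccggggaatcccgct
Irf8: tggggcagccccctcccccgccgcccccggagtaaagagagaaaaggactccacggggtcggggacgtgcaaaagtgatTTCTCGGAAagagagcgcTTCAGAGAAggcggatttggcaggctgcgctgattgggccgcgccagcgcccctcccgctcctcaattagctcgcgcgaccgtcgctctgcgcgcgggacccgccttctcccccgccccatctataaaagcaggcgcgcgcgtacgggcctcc

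The rest of the pathway was read from gene lists. Beside the counts and medians of all lists below, 8.61% of all genes were at least 2-fold higher in Treg and 3.6% lower. The median log2 ratio of all genes was 0.14. Of 11 interferon receptor and JAK-STAT genes, 1 was at least 2-fold higher in Treg and 0 lower, with a median log2 ratio of 0.57. The higher gene was Socs1, a feedback inhibitor of JAK kinases, with 235 Treg UMIs and 85 Tconv UMIs, 1.92 (1.55 to 2.29). Jak1 was at -0.16 (-0.28 to -0.05) and the receptor gene Ifnar1 at 0.59 (0.30 to 0.88).

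Upstream of IRF3, IRF5 and IRF7, 1 of 15 measured sensor and adaptor genes was at least 2-fold higher in Treg and 0 lower, with a median of 0.03, or -0.10 without ribosomal protein genes in the totals. That gene was Tlr7, an endosomal RNA sensor, from 18 Treg UMIs and 9 Tconv UMIs, 1.45 (0.22 to 2.79). The kinase gene Irak1 was at 0.27 (0.15 to 0.38), Tmem173, which encodes STING, at 0.91 (0.65 to 1.17) and Ddx58, which encodes the RNA sensor RIG-I, at -0.27 (-0.57 to 0.03).

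Among 9 measured DNA-binding partners of IRF4 and IRF8, 3 were at least 2-fold higher in Treg and 0 lower, with a median of 0.68. They were Ikzf3, the lymphoid factor Aiolos, at 1.80 (1.06 to 2.58), Jun, an AP-1 subunit, at 1.31 (0.18 to 2.52) and Bcl6, a repressor needed for follicular helper T cells, at 1.06 (0.22 to 1.92). The abundant AP-1 genes Jund and Junb were at 0.51 (0.36 to 0.66) and 0.68 (0.43 to 0.92), and Ikzf1 was lower, at -0.62 (-0.82 to -0.43). None of the 3 IRF-2 binding protein genes was past 2-fold, with a median of -0.09: Irf2bpl was at 0.78 (0.56 to 1.0), Irf2bp2 at -0.09 (-0.42 to 0.24) and Irf2bp1 at -0.10 (-0.56 to 0.35).

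Of 44 measured interferon-stimulated genes, 8 were at least 2-fold higher in Treg and 1 lower, with a median of 0.44. Gbp3 and Gbp5, which encode guanylate-binding proteins, were at 2.62 (1.70 to 3.66) and 2.08 (1.32 to 2.91). Samhd1, a nucleotide hydrolase, had 1221 Treg UMIs and 615 Tconv UMIs, 1.44 (1.30 to 1.58), and Ifi27l2a was at 1.18 (1.03 to 1.32). The abundant GTPase gene Ifi47 was at 0.34 (0.19 to 0.50), and Sp100, a nuclear body gene, was lower, at -1.04 (-1.99 to -0.16). Of 13 MHC class I and immunoproteasome genes, targets of IRF1, 1 was at least 2-fold higher and 0 lower, with a median of 0.49. That was Nlrc5, the class I transactivator, at 1.11 (0.66 to 1.56), while B2m was at 0.11 (0.07 to 0.15), H2-D1 at 0.57 (0.53 to 0.62) and H2-K1 at 0.61 (0.56 to 0.66).

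The lists used for cell states differed more between the libraries. Of 14 TCR response genes, 6 were at least 2-fold higher in Treg and 0 lower, with a median of 0.86; the TNF receptor genes Tnfrsf4 and Tnfrsf9 were at 4.70 (4.06 to 5.40) and 3.72 (3.12 to 4.37). Of 11 effector Treg genes, 7 were higher and 0 lower, with a median of 1.45, and Icos was at 1.54 (1.22 to 1.86). Whether these genes depend on IRF4 was not tested. Effector or memory genes had 7 of 19 higher and 1 lower, and resting T genes 0 of 12 higher and 5 lower, with medians of 0.87 and -0.87. S100a4, a calcium-binding protein gene of memory T cells, was at 2.93 from 301 Treg UMIs and 54 Tconv UMIs, and Igfbp4 was at -3.10 from 129 and 1505.

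**Figure D5:**
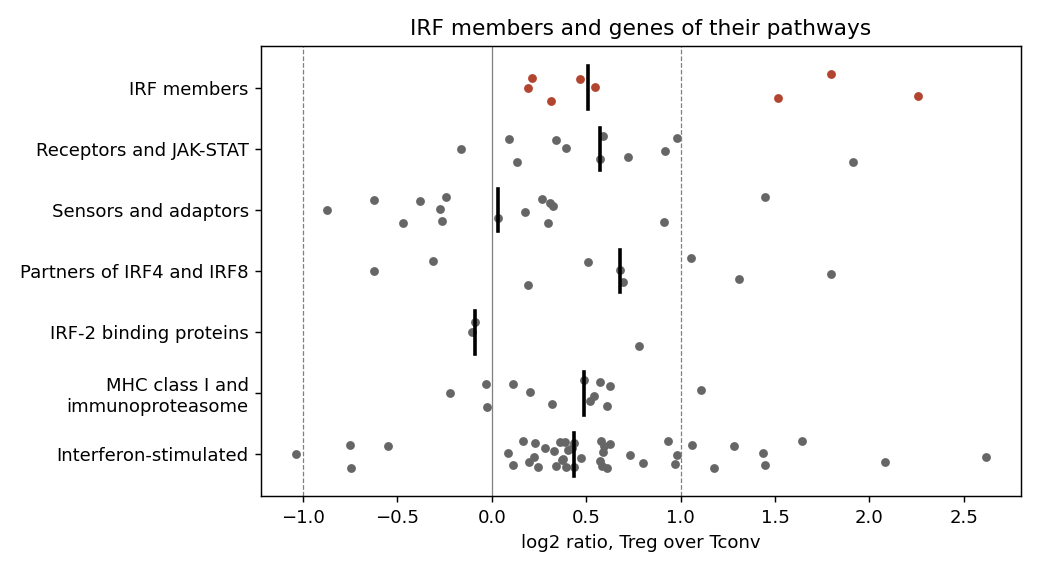
Log2 ratio of Treg over Tconv for the 8 IRF genes (top) and for the measured genes of 6 pathway lists, 1 point per gene. Black bars are medians and dashed lines mark 2-fold. The IRF genes run from 0.19 to 2.26, and the sensor and adaptor genes are centred near 0.

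Co-detection of the members with other genes was weak in these sparse counts, and the correlations describe cells that share a library and are no finding. Across 738 thinned Treg cells the gene most like Irf1 was Irgm1, an interferon-induced GTPase gene, with a Pearson correlation of detection of 0.16 and 28 cells with both. Across 1108 thinned Tconv cells the gene most like Irf8 was Cd74, at 0.34, from 4 cells with both. Without non-T cells, fewer than the 10 Tconv cells that this ranking required held Irf8, and it was not made. Irf3 was most like Zfp408 in Treg and most like Ticam1, the adaptor TRIF upstream of it, in Tconv, at 0.18 and 0.17. Between members, Irf4 and Irf8 were seen together in 2 thinned Treg cells, where 0.228 cells would have both if unrelated. Irf1 and Irf7 were together in 8 Tconv cells, beside 2.84, and Irf1 and Irf2 in 4 Treg cells, beside 10.1.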

How the data were processed

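The deposited table holds raw UMI counts per gene and cell, per the labels and the values. TopHat2, SAMtools and mm10 are named, without roles, in the submitters' processing notes. How genes were annotated, UMIs counted and cells filtered was not given in the sources used here. Cells were grouped by their labels, and 0 columns were unused. Counts were summed per library and given per 1000000 UMIs (CPM), with exact Poisson intervals, exact conditional intervals for ratios and Clopper-Pearson intervals for shares, all at 95%. Past 2-fold among the 8988 genes with at least 20 UMIs was the call; with 1 library per group no p-value was computed. Thinning to 1000 UMIs left out 78 Treg and 192 Tconv cells. Doublets called by scrublet (scanpy 1.11.5; 1 Treg and 12 Tconv cells) were kept, and left out in an alternative; TMM factors came from edgeR 4.0.16. The ratios were run on simulated independent Poisson counts, which is what their intervals assume. That run cannot show how the intervals hold for UMIs concentrated in few cells. Members, lists and alternatives were chosen with earlier results of these data known. Marker lists held 301 entries, 285 of them in the table. Named genes were all members, the 3 most abundant of each list and up to 3 per direction past 2-fold with the farthest interval bound, and the 3 genes per member with the most similar detection; Nr4a1, Cd69, Batf, Siglech, Cd79a, C1qa, C1qb, Hba-a2, Jchain, Xbp1, Mzb1, Cd3e and Cd74 were named beside it. Some genes that the rule names are not reported here. Promoters came from RefSeq (GRCm38.p6). Python 3.11.15, numpy 2.4.6, pandas 2.3.3 and scipy 1.17.1 were used.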

Additional observations from a re-analysis of the deposited data

How the results depend on the processing

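No paired analysis was possible because each group is 1 library. The count of IRF genes at least 2-fold higher in Treg was 3 under all 13 alternatives, among them other totals, equal depth, cells without dendritic, B or myeloid genes, cells without doublets and the members' highest cells left out. That count uses the ratio and not its interval. The Irf5 interval included 0 without cells with dendritic, B or class II genes, at 1.75 (-0.09 to 3.90). It also did without cells above 2 times the median UMIs, at 1.24 (-0.14 to 2.71). The Irf4 interval included 0 when thinned cells with a UMI were counted, at 1.59 (-0.31 to 3.77). Under the other alternatives that gave an interval, those of Irf4, Irf5 and Irf8 lay above 0. One of the alternatives, no minimum of UMIs, could not change the count, because every member passed the minimum. The share of thinned Treg cells with an Irf8 UMI, 2.85%, was 1.38% when cells were thinned to 500 UMIs, by the construction of that setting. The Treg share of Irf8 UMIs in cells with dendritic, B or class II genes, 58.4%, was 80.9% with at least 1 UMI, 69.7% with at least 2 UMIs and 32.3% in cells thinned to 1000 UMIs; the cause was not tested. The log2 ratio of Irf1 by TCR response genes in Treg, 0.82, was 0.22 in cells that were not thinned; the cause was not tested. For Irf4 by TCR response genes, a threshold of 1 UMI left no Irf4 UMI in the other cells and gave no ratio. The median of interferon-stimulated genes lay between 0.31 and 0.45. Of the 185 values under alternatives, 177 stayed within the main interval or spread, 8 moved outside it and 0 changed sign among called values. The 177 include the 13 counts of IRF genes, which have no interval and equalled the main count. Depth limits Irf4 and Irf5 most, with 10 UMIs each in Tconv. With no replicate libraries, differences between mice, sorts or library preparations cannot be told apart from those between Treg and Tconv.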
